A study of Rattus norvegicus with 6 samples.

Results

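The CC chemokines are small secreted proteins that draw leukocytes along a gradient, and 10 genes linked to monocyte recruitment are described here: the ligands Ccl2, Ccl7, Ccl12, Ccl3, Ccl4, Ccl5, Ccl6 and Ccl20 and the receptors Ccr2 and Ccr1. They were chosen by name, with earlier results of these data known. A member was followed when the RefSeq accession of a probe mapped to it. Of the 10 genes, 9 had a probe, with 1 probe each, among 13876 genes named in this way on the arrays. Ccl12 had no matching probe and is left out of all values. The series compared heart muscle of male Wistar rats 6 h after ligation of the left anterior descending coronary artery with that of sham-operated males at the same time. In the infarct group the border zone, the muscle next to the infarct, was found by double staining with TTC and EB. The labels describe the sham tissue as a control zone and give no age, and no genetic change or drug is named in either group. Total RNA was hybridised to 1-colour Agilent arrays, with 3 border-zone arrays (M17, M24 and M25) and 3 sham arrays (C4, C5 and C6).

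CC chemokines bind G protein-coupled receptors on leukocytes, and several ligands share a receptor. Ccl2, Ccl7 and Ccl12 act on Ccr2, the receptor by which inflammatory monocytes leave the bone marrow and enter injured tissue. Ccl7 also binds Ccr1, as do Ccl3, Ccl5 and Ccl6. Ccl20 acts on Ccr6, a receptor of lymphocytes and dendritic cells rather than of classical monocytes. In the infarcted heart, stromal cells, endothelium and macrophages are known sources of Ccl2, and monocytes follow neutrophils into the tissue. The inducible ligands are textbook targets of NF-kappaB, AP-1 and C/EBP transcription factors.

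The start regions of 4 members are shown because the results turn on these members: the ligands Ccl7 and Ccl20, with the largest differences in the pooled fit (though not after normexp background correction, as given with Ccl20), and the receptors Ccr1, which rose, and Ccr2, which did not pass. Each window runs from 250 bases before to 50 bases after the gene start in RefSeq (build GRCr8), 5′ to 3′ along the gene, and 6 of the 10 members have one in the table used. The Ccl7 window is chr10:67513845-67514144 on the plus strand and the Ccl20 window is chr9:91836909-91837208 on the plus strand. The Ccr1 window is chr8:132439217-132439516 on the minus strand and the Ccr2 window is chr8:132611953-132612252 on the plus strand. Capitals mark matches, on either strand, to the letters GGGNNNNNCC (a kappaB-type motif), TGANTCA (AP-1) or TTGCNNAA (C/EBP).
Ccl7: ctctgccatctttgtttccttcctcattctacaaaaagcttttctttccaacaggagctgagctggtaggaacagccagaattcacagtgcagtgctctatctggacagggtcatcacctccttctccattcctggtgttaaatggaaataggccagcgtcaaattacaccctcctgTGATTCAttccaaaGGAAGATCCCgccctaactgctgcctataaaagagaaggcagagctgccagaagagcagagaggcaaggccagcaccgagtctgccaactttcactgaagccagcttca
Ccl20: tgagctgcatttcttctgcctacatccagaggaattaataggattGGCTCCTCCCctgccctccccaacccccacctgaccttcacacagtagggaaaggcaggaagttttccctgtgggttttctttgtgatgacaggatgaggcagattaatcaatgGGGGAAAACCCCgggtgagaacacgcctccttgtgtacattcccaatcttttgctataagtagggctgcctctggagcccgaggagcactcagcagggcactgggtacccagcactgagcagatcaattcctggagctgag
Ccr1: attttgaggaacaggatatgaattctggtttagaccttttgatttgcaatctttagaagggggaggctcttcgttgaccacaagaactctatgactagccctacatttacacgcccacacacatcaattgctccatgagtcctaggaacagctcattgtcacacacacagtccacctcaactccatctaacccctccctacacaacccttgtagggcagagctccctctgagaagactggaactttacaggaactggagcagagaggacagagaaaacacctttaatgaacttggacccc
Ccr2: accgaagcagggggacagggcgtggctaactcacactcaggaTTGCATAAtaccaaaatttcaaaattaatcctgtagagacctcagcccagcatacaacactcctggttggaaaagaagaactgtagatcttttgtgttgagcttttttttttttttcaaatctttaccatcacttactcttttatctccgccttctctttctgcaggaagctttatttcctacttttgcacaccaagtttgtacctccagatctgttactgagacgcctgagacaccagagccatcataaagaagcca

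In the Ccl7 window the AP-1 letters TGATTCA began 73 bases before the start and the kappaB letters GGAAGATCCC, on the minus strand, 59 bases before it. In the Ccl20 window overlapping kappaB matches on both strands covered 1 run that began 91 bases before the start, and a further match on the minus strand began 205 bases before it. The Ccr2 window held the C/EBP letters TTGCATAA, 208 bases before the start, and these letter patterns were not in the Ccr1 window. The Ccl12 and Ccl6 windows held kappaB letters and neither of the others. Of 33469 promoter windows of the same length, 47.3% held the kappaB letters, 7.33% the AP-1 letters and 10.6% the C/EBP letters, so a kappaB match alone is common. A match is a description of letters and not a binding site.

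Levels are log2 signals minus the 75th percentile of their array, so 0 is that percentile, and differences are border zone minus sham. A change was called with limma (two-sided) at an adjusted p below 0.05, with Benjamini-Hochberg adjustment over 17930 probes. The error after ± is the standard error from limma (n = 3 border-zone and n = 3 sham arrays). Border-zone arrays and C4 had 73.7% to 78.3% of probes well above background, C5 and C6 51.0% and 52.4%. The central nervous tissue markers summed to 12.7 and 16.3 on C5 and C6 but to 2.12 on C4 and 1.32 to 1.65 in the border zone (linear signal, 1 being the 75th percentile of the array). C5 and C6 were each scanned apart from the other 4 arrays, so a fit with scan as a block compares the border zone with C4 alone. That fit has no sham spread, and its values are given as "against C4". M25 lay between M17 and M24 at 97.6% of the 572 probes in which those 2 differed over 2-fold, probes picked for that distance. It did so at 70.5% of all probes tested and in 8 of the 9 members. It is thus in doubt whether M25 is a separate animal. Values without M25 are given where they end a call. The cardiac muscle markers, Myh6 and Tnnt2 among them, were well above background on all 6 arrays, and none of 10 passed the test.

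Of the 9 genes, 6 rose in the border zone, none fell and 3 did not pass the test. Over all probes tested, 9.01% were called higher and 10.3% lower. Because the genes were chosen with earlier results of these data known, such shares are set side by side as a description and not as a test. The median difference of the 9 genes was 2.80, against -0.03 over all probes tested, and 2.85 against -0.04 when C4 alone was the control. In 8 of the 9 genes every border-zone array lay above every sham array, which held for 20.9% of all probes tested. Against C4 alone 5 of the 9 were called higher, with 8.43% of all probes. Without M25 only 4 were, with 1.6% of all probes. Of the 9 genes, 6 were well above background on all 6 arrays. Ccl4, Ccl20 and Ccr2 were tested through their border-zone signal alone, being dim on C5 and C6.

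**Figure D1:**
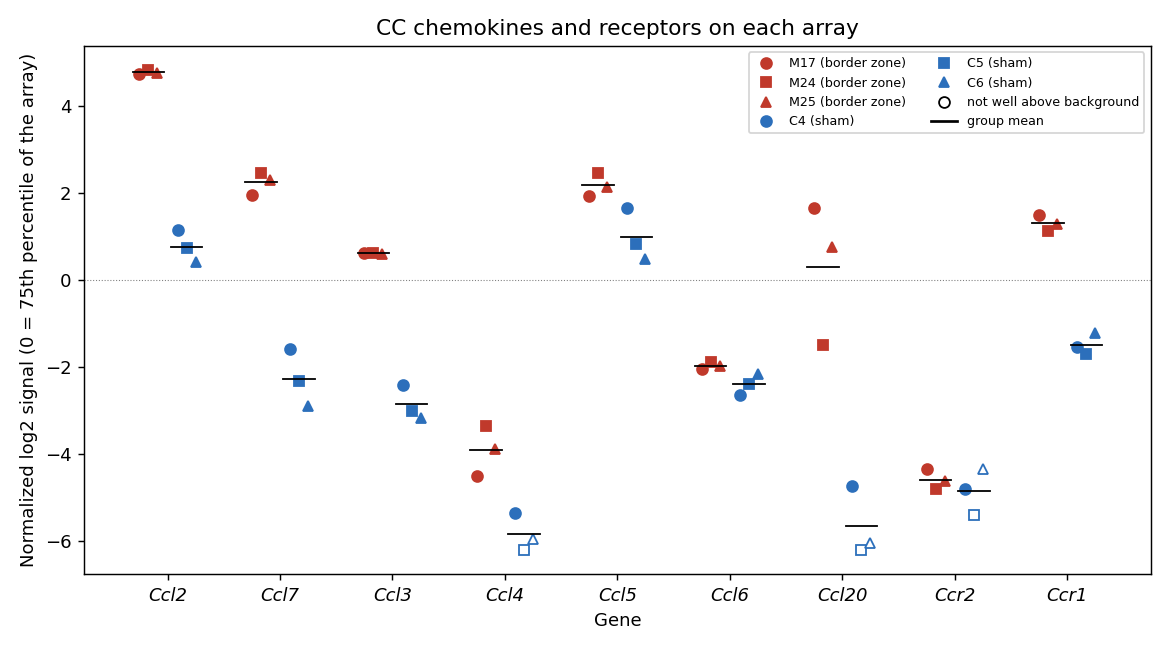
Normalized log2 signal (y axis, 0 being the 75th percentile of the array) of the 9 genes (x axis) on the 3 border-zone arrays (red) and the 3 sham arrays (blue); open symbols were not well above background and black lines are group means. Border-zone and sham arrays are apart in 8 genes and overlap in Ccr2; levels of different genes come from different probes and cannot be ranked.

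Ccl2, the principal attractant of Ccr2-bearing monocytes, rose 16.1-fold. It read 4.75 on M17, 4.84 on M24 and 4.76 on M25, and 1.15, 0.75 and 0.43 on sham arrays C4, C5 and C6. The border-zone arrays were within 0.1 of each other, and all lay above every sham array, of which C4 was highest. The difference was 4.01 ± 0.20 (adjusted p = 0.000791), and against C4 it was 3.64 (12.4-fold, adjusted p = 0.00416).

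Ccl7, a ligand of Ccr2 and Ccr1 encoded beside Ccl2, rose 22.8-fold. It read 1.97, 2.47 and 2.31 on M17, M24 and M25 and -1.58, -2.31 and -2.89 on C4, C5 and C6. The groups were far apart, with C4 again the highest sham array and M17 the lowest border-zone array. The difference was 4.51 ± 0.35 (adjusted p = 0.00196), and 3.83 against C4 (14.3-fold, adjusted p = 0.0103).

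Ccl3, a ligand of Ccr1 made by activated macrophages and neutrophils, rose 11.1-fold. Its levels were 0.64, 0.63 and 0.62 in the border zone (M17, M24, M25) and -2.40, -3.00 and -3.15 in sham (C4, C5, C6). The border-zone arrays nearly coincided and the sham arrays all lay well below them. The difference was 3.48 ± 0.21 (adjusted p = 0.00124), and 3.03 against C4 (8.17-fold, adjusted p = 0.00439). Ccl2, Ccl7 and Ccl3 kept their call under all 17 alternative settings tried.

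Ccl4, the neighbour of Ccl3 in the genome and a chemokine of activated macrophages and lymphocytes, was a dim probe. It read -4.49, -3.36 and -3.87 on M17, M24 and M25 and -5.35, -6.20 and -5.95 on C4, C5 and C6, and was not well above background on C5 and C6. The groups did not overlap, M24 being the highest array and M17 the border-zone array nearest to sham. The difference was 1.93 ± 0.35 (adjusted p = 0.0189), a rise of at least 1.63-fold. The call was lost against C4 (1.45, adjusted p = 0.118) and without M25 (adjusted p = 0.0932), M24 (0.0598), C5 (0.0640) or C6 (0.0514), and after normexp background correction the difference was -0.02 (adjusted p = 0.963). Over 16 alternative settings its adjusted p ran from 0.00022 (array weights, a fit that stopped before it converged) to 0.963.

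Ccl20, the ligand of Ccr6, had the largest difference of the 9 genes in the pooled fit and the widest spread. Its levels were 1.65, -1.49 and 0.78 on M17, M24 and M25 and -4.72, -6.20 and -6.05 on C4, C5 and C6, the last 2 of which were not well above background. Every border-zone array was far above every sham array, but M24 lay about 3 log2 units below M17. The difference was 5.97 ± 0.87 (adjusted p = 0.00987), a rise of at least 26.2-fold. Against C4, where the probe was measured, the level was 32.7-fold higher (5.03, adjusted p = 0.0804), and without M25 the adjusted p was 0.0599, so neither passed. With normexp its difference was 3.03 (adjusted p = 0.0419), below those of Ccl2 (3.996) and Ccl7 (3.71) in the same setting. Over 16 settings its adjusted p ran from 0.000193 (array weights, not converged) to 0.189. Of the red cell markers, haemoglobin beta (Hbb) read 2.68 on M24 and 5.47 to 6.05 on the other 5 arrays. Alas2 read -4.35 on M24 and -0.45 to 1.46 on the others. Slc4a1 was not lowest on M24, with 0.07 there and -0.17 on C6. The part of blood content in the Ccl20 spread was not tested.

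Ccl5, which attracts T cells and monocytes through Ccr1 and other receptors, did not pass the test. It read 1.94, 2.47 and 2.15 on M17, M24 and M25 and 1.66, 0.83 and 0.49 on C4, C5 and C6. The groups did not overlap, but C4 lay close under M17. The difference was 1.20 ± 0.33 (2.29-fold, adjusted p = 0.0534), and 0.53 against C4 (adjusted p = 0.196). With C4 left out it was 1.53 (adjusted p = 0.00547). Ccl5 also passed with C4 kept when only probes well above background on all 6 arrays were tested (adjusted p = 0.0299). The call of this gene thus depends on C4 and on the set of probes tested. Over the 17 settings its adjusted p ran from 0.000336 (array weights, not converged) to 0.409.

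Ccl6, a rodent ligand of Ccr1 made by macrophages, did not pass either. Its levels were -2.04, -1.88 and -1.97 in the border zone (M17, M24, M25) and -2.63, -2.38 and -2.15 in sham (C4, C5, C6). The groups were apart by a narrow margin, and C4 was here the lowest sham array. The difference was 0.42 ± 0.15 (1.34-fold, adjusted p = 0.108), and 0.67 against C4 (adjusted p = 0.0372), with adjusted p from 0.00234 to 0.691 over the 17 settings. The lowest adjusted p of Ccl6 came from the array weights fit, which did not converge. Of the 7 ligands, 6 were highest on C4 among the sham arrays, all but Ccl6, so that against C4 these 6 had smaller differences than in the pooled fit. C5 and C6 also had less probe signal and more central nervous tissue transcript, as above, and their part in these lower sham levels was not tested.

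Ccr1, a receptor of monocytes and neutrophils for Ccl3, Ccl5, Ccl6 and Ccl7, rose 6.95-fold. It read 1.51, 1.14 and 1.31 on M17, M24 and M25 and -1.53, -1.70 and -1.21 on C4, C5 and C6. The groups were clearly separate and C4 lay within the other sham arrays. The difference was 2.80 ± 0.17 (adjusted p = 0.00124), and 2.85 against C4 (7.21-fold, adjusted p = 0.0109). Its call held in 16 of the 17 settings and was lost only with M25 left out and C4 as the control together (adjusted p = 0.0535).

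Ccr2, the receptor for Ccl2 and Ccl7, did not pass the test. Its levels were -4.33, -4.79 and -4.61 on M17, M24 and M25 and -4.79, -5.39 and -4.34 on C4, C5 and C6. The groups overlapped, and the probe was not well above background on C5 and C6. The difference was 0.26 ± 0.29 (adjusted p = 0.550) and 0.21 against C4. Its sign turned with normexp (-0.61, adjusted p = 0.146) and without C5 (-0.02, adjusted p = 0.965), and its adjusted p ran from 0.0113 to 0.965 over 16 settings. With array weights alone, a fit that stopped before it converged, it passed, as higher (0.65).

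Against C4, the only sham array on which both receptors were well above background, the difference was 2.85 for Ccr1 and 0.21 for Ccr2. On the same basis it was 3.03 for Ccl3 and 1.45 for its neighbour Ccl4. With 1 sham array these pairs of differences have no sham spread and were not tested against each other. In the order of size in the pooled fit (Ccl20, Ccl7, Ccl2, Ccl3, Ccr1, Ccl4, Ccl5, Ccl6, Ccr2), the genes of most of the 8 neighbouring pairs could not be told apart. Within each array, Ccl2 minus Ccl3 was 4.12 to 4.21 in the border zone and 3.55 to 3.75 in sham, so these 2 genes were apart beyond the spread. Ccl3 minus Ccr1 was -0.87 to -0.51 in the border zone and -1.94 to -0.87 in sham, ranges that touched. The other 6 pairs overlapped. The order comes from the same differences, so the pairs are a description with no test.

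**Figure D2:**
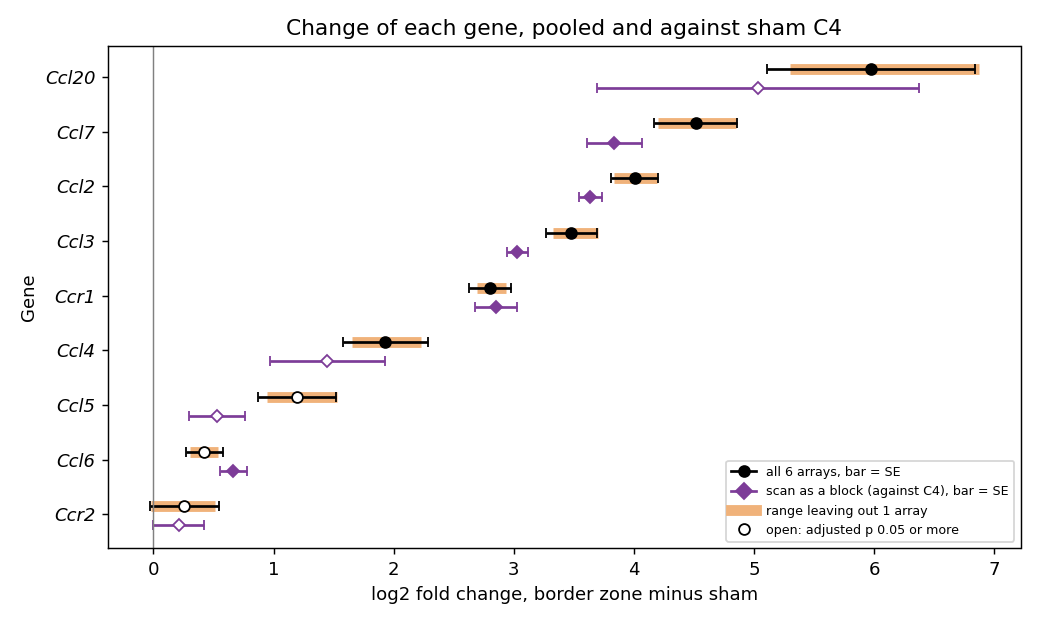
Log2 fold change, border zone minus sham (x axis), of each gene (y axis): black circles use all 6 arrays and purple diamonds compare with sham C4 alone, bars are standard errors, orange bands are the range when 1 array is left out, and open symbols did not pass adjusted p below 0.05. Ccl2, Ccl7, Ccl3 and Ccr1 passed both ways, Ccl4 and Ccl20 only with all arrays, Ccl6 only against C4, and Ccl5 and Ccr2 neither way.

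The members' places in the genome were set beside their changes by gene order alone (GRCr8). On chromosome 10, Ccl2 and Ccl7 lie next to each other and both rose, while the next gene, the eosinophil attractant Ccl11, differed by 0.17 ± 0.42 (adjusted p = 0.796). Further along the same chromosome lie Ccl5, Ccl9, Ccl6, Ccl3 and Ccl4, of which the last 2 rose. Ccl9, a rodent macrophage chemokine between Ccl5 and Ccl6, differed by 0.16 ± 0.32 (adjusted p = 0.747). On chromosome 8, Ccr1 rose, whereas its neighbours Ccr1l1 (0.82 ± 0.31, adjusted p = 0.116) and Ccr2 did not pass. Ccr3, between Ccr1 and Ccr1l1, was not well above background on any array. Ccl20 lies apart from the others, on chromosome 9.

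**Figure D3:**
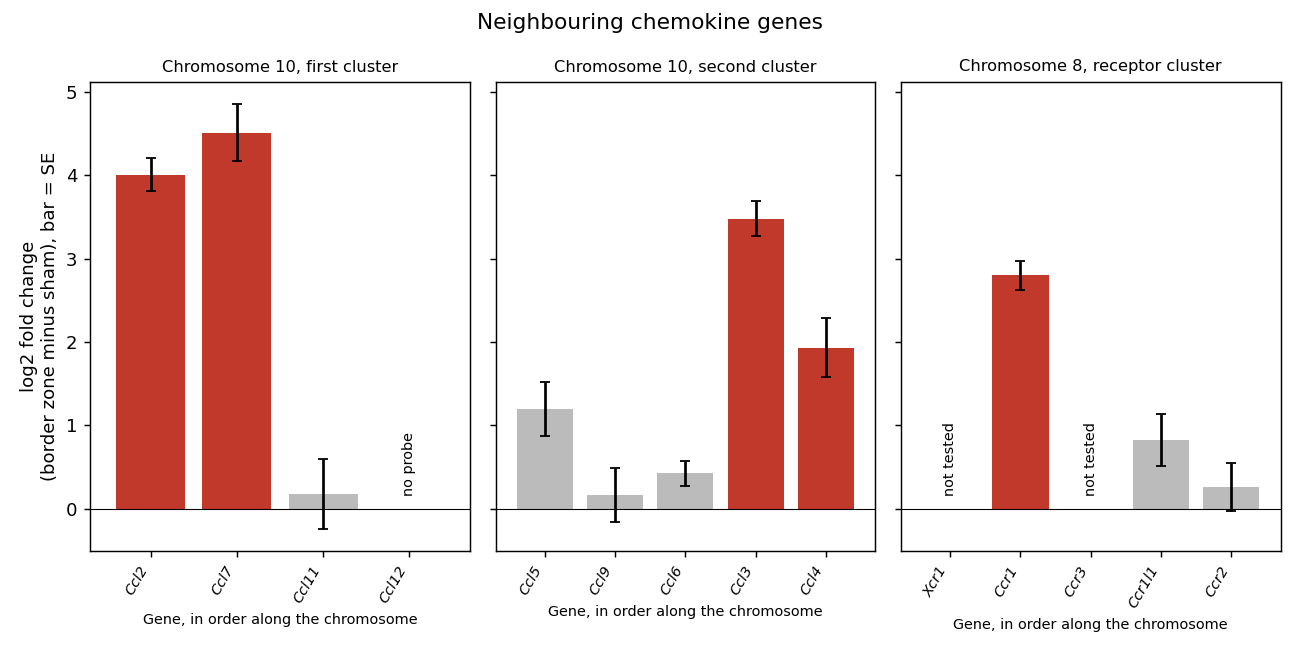
Log2 fold change with its standard error (y axis) of the genes in order along chromosome 10 (first and second cluster) and chromosome 8 (receptor cluster); red bars passed adjusted p below 0.05 as higher, grey bars did not pass. Values vary along each cluster, such as Ccl7 at 4.51 beside Ccl11 at 0.17, and Ccr1 at 2.80 in the same cluster as Ccr2 at 0.26.

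Other chemokine genes were measured as a list of 28 ligands, receptors and atypical receptors, 24 with a probe and 17 tested. Of the 17, 3 were higher, 1 was lower and 13 did not pass, with a median difference of 0.16 (0.22 against C4). Without M25 none of the 17 was called by limma, and 5 had an unadjusted p below 0.05. Ccl17, a ligand of Ccr4 made by dendritic cells and macrophages, rose at least 2.60-fold (1.91 ± 0.33, adjusted p = 0.0163; 2.18 against C4), but its difference was 0.07 with normexp (adjusted p = 0.883). Ccl19, a ligand of Ccr7, rose 1.75-fold (0.80 ± 0.21, adjusted p = 0.0496), a call lost against C4 and under each of the 5 other scalings and sources of values. Ccr6, the receptor of Ccl20, rose at least 1.99-fold (1.03 ± 0.22, adjusted p = 0.0290; 1.26 against C4), but its difference was -0.12 with normexp (adjusted p = 0.771).

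Cx3cr1, the fractalkine receptor of patrolling monocytes and resident macrophages, was the 1 gene called lower (-1.34 ± 0.28, adjusted p = 0.0277). Its probe was dim on every array and not well above background on C5 and C6, and against C4 the difference was -0.90 (adjusted p = 0.105), and with normexp -0.92 (adjusted p = 0.0847). The atypical receptors Ackr2, Ackr3 and Ccrl2, of which the first 2 take up chemokines without signalling, differed by -0.28, 0.12 and 0.07, and none passed.

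Inducers of CC chemokine genes, the cytokines, sensors and transcription factors that switch them on, gave 15 tested genes of 18. Of these 7 rose and none fell, with a median of 1.38 (1.56 against C4); 5 were called without M25. Interleukin 6 (Il6) rose at least 139-fold (8.16 ± 0.63, adjusted p = 0.00197), interleukin 1 beta (Il1b) 10.9-fold (3.44 ± 0.21, adjusted p = 0.00124) and Fos, a subunit of AP-1, 5.22-fold (2.39 ± 0.46, adjusted p = 0.0221). Fos lost its call against C4 (adjusted p = 0.115) and without M25 (adjusted p = 0.104). Tumour necrosis factor (Tnf) read -2.59, -1.30 and -1.80 on M17, M24 and M25 and -1.27, -1.90 and -2.13 on C4, C5 and C6. Its groups overlapped and it did not pass (-0.13 ± 0.39, adjusted p = 0.830).

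Feedback regulators, which limit chemokine transcription or mRNA life, gave 8 tested genes of 10, of which 6 rose and 1 fell (median 1.92, and 1.50 against C4). Without M25, 2 were called higher and none lower. The interleukin 1 receptor antagonist Il1rn rose 12.8-fold (3.68 ± 0.28, adjusted p = 0.00182), the transcription factor Atf3 8.76-fold (3.13 ± 0.66, adjusted p = 0.0276) and the cytokine signalling inhibitor Socs3 at least 3.51-fold (2.57 ± 0.45, adjusted p = 0.0163). Atf3 lost its call against C4 (2.49, adjusted p = 0.140), and Atf3 and Socs3 without M25 (adjusted p 0.118 and 0.0823). With normexp the Socs3 difference was 0.57 (adjusted p = 0.127). Dusp1, a phosphatase of MAP kinases, was the gene that fell (-0.67 ± 0.14, adjusted p = 0.0248), a call lost against C4 (adjusted p = 0.0739) and without M25 (0.130).

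Of 17 tested genes that act downstream of CC receptors, of 21 listed, 8 rose and none fell (median 0.49, and 0.52 against C4), and 4 were called without M25. Rgs1, which damps G protein signals in leukocytes, rose 6.56-fold (2.71 ± 0.32, adjusted p = 0.00531). The myeloid Src family kinase Fgr rose 2.91-fold (1.54 ± 0.13, adjusted p = 0.00232), but the difference was 0.64 with normexp (adjusted p = 0.0867). The ubiquitous G protein subunits Gnai2 and Gnb1 differed by -0.34 and -0.13 and did not pass. Gnai3, a further G protein subunit of the list, rose 1.74-fold (0.80 ± 0.12, adjusted p = 0.0116). Its difference was 0.71 against C4, and its call was lost without M25 (adjusted p = 0.0885).

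Cell-surface glycosaminoglycans hold chemokines in place and proteases trim them, and 7 of 8 such genes were tested. Syndecan 4 (Sdc4), a heparan sulphate proteoglycan, rose 5.43-fold (2.44 ± 0.20, adjusted p = 0.00222; 2.79 against C4). Dipeptidyl peptidase 4 (Dpp4), which clips the amino end of several chemokines, was 3.19-fold lower (-1.67 ± 0.17, adjusted p = 0.00385; -1.68 against C4). The other 5 did not pass, and both named calls held without M25 and against C4.

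**Figure D4:**
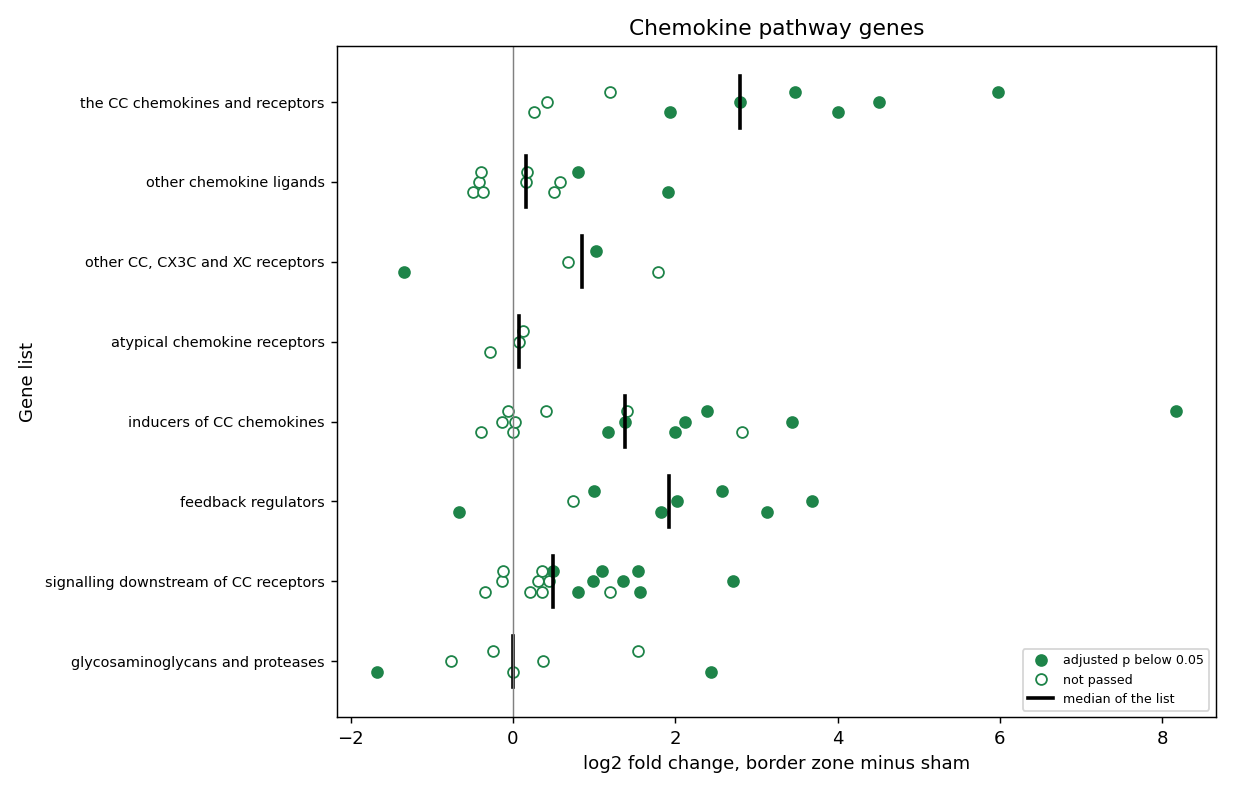
Log2 fold change, border zone minus sham (x axis), of each tested gene in the list of CC chemokines and receptors described here and in 7 other chemokine pathway lists (y axis); filled circles passed adjusted p below 0.05 and black bars are list medians. The median is 2.80 for the CC chemokines and receptors, 0.17 for the other ligands, 1.38 for the inducers and 1.92 for the feedback regulators, and Il6 is the point at 8.16.

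Markers of the cells that carry or make these chemokines were counted in the same arrays. In bulk tissue, a change in the number of cells of a type and a change in RNA per cell cannot be told apart. Of 15 monocyte markers, 10 were tested, of which 7 rose and none fell (median 1.33, and 1.01 against C4), and 2 were called without M25. Their summed linear signal was 65.0 to 66.8 in the border zone and 19.7 to 30.4 in sham. Most of this sum came from 1 gene, Lyz2, at log2 5.56 to 5.65 in the border zone and 3.64 to 4.27 in sham. Fcgr3a, Fcgr1a and Nr4a1 did not pass. Clec4e, a sensor of damaged cells, rose at least 7.48-fold (3.50 ± 0.68, adjusted p = 0.0225), Cd14, a co-receptor for endotoxin, 4.21-fold (2.07 ± 0.17, adjusted p = 0.00225) and Plac8 3.37-fold (1.75 ± 0.23, adjusted p = 0.00708). Without M25 Clec4e and Plac8 lost their calls (adjusted p 0.0987 and 0.0508), and with normexp the Clec4e difference was 1.15 (adjusted p = 0.0839).

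Neutrophil markers gave 9 tested of 12, and 8 of them rose (median 2.99, and 3.68 against C4), 5 also without M25. Their sum was 6.37 to 6.63 in the border zone and 0.281 to 0.537 in sham. S100a8, an abundant calcium-binding protein of neutrophils, rose 36.9-fold (5.21 ± 0.43, adjusted p = 0.00228), Fcnb 19.6-fold (4.29 ± 0.14, adjusted p = 0.000371) and Csf3r, the receptor of granulocyte colony-stimulating factor, at least 6.23-fold (3.82 ± 0.13, adjusted p = 0.000410). With normexp the Csf3r difference was 0.98 (adjusted p = 0.0950). Neutrophil and monocyte markers thus moved with Ccl3 and Ccr1, which both cell types can express, and their part in those rises was not tested.

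Of the resident macrophage markers, 10 of 14 were tested, with 4 higher, 2 lower and 4 not passing (median 0.23, and 0.18 against C4); without M25 1 was called higher and none lower, and against C4 1 higher and 3 lower. Their sums overlapped, 35.4 to 44.3 in the border zone and 35.0 to 36.9 in sham, and the defining marker Cd163 was not well above background on any array. Lyve1, a hyaluronan receptor, rose 2.18-fold (1.12 ± 0.24, adjusted p = 0.0275) and the mannose receptor Mrc1 1.91-fold (0.94 ± 0.10, adjusted p = 0.00431). Trem2, a lipid receptor of macrophages, fell by 1.33 on the log2 scale (SE 0.17, adjusted p = 0.00738). Lyve1 lost its call without M25 (adjusted p = 0.118) and against C4 (0.0514), and without M25 so did Trem2 (0.0563).

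Among T cell and natural killer cell markers 1 of 9 tested was higher (Klrd1, 0.54 ± 0.14, adjusted p = 0.0437). Neither of 2 B cell markers passed. Of 6 mast cell and eosinophil markers 3 fell, Fcer1a and Cpa3 most (-1.41 and -1.28), and Epx was not well above background on any array. Of 4 endothelial markers 1 fell (Emcn, -0.95), and of 6 fibroblast markers 2 fell (Col3a1, -1.84, and Col1a2, -1.02) and 1 rose (Tcf21, 1.84). Of 5 red cell and platelet markers 1 rose (Pf4, a platelet chemokine, 0.82). Of 6 central nervous tissue markers, 2 were lower in the border zone, Gad1 among them (-3.92), which was higher on C5 and C6 than on C4. Of the calls named here, those of Klrd1, Fcer1a, Cpa3, Emcn, Col3a1, Col1a2, Pf4 and Gad1 were lost without M25, and that of Tcf21 was kept. Against C4 those of Klrd1, Fcer1a, Cpa3, Emcn, Col3a1 and Col1a2 were lost.

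**Figure D5:**
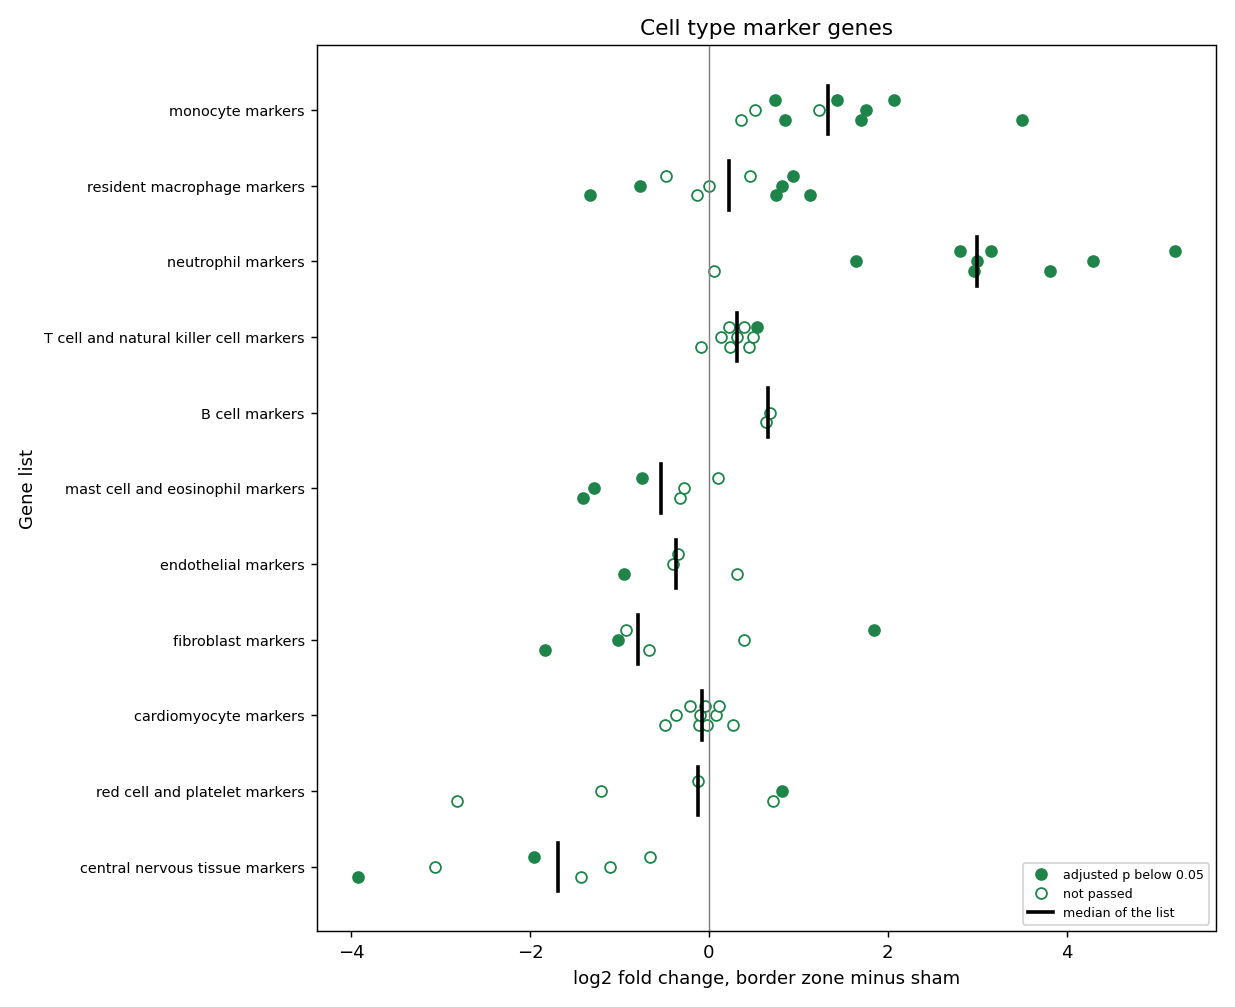
Log2 fold change, border zone minus sham (x axis), of each tested cell type marker by list (y axis); filled circles passed adjusted p below 0.05 and black bars are list medians. The neutrophil list has the highest median, 2.99, the monocyte list follows at 1.33, and the cardiomyocyte list lies at -0.07 with no gene passing.

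Genes whose levels ran most like those of 3 members over the 6 arrays were named by Pearson's r among 10992 genes, as a description, since the 6 arrays are the same 3 against 3 and any gene that separates the groups has a high r. Like Ccl2 were Cd59b, Tnfrsf12a, Rbm3, Tmbim1 and Synm (r = 0.9996 to 0.9988), and 129 genes exceeded an r of 0.99. Like Ccr1 were Nob1, Cnksr1, Slc7a5 and Polr1g (r = 0.9998 to 0.9992), with 94 genes above 0.99. Like Ccr2 were Tnks, Raver1, Vpreb3, Smim14 and Rasgrf2 (r = 0.9881 to 0.9804), and no gene exceeded 0.99. Tnfrsf12a, the receptor of the cytokine Tweak, differed by 3.35, and Slc7a5, an amino acid transporter, by 2.56.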

How the data were processed

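Per the file headers, the authors scanned 1-colour arrays with Agilent Feature Extraction 11.0.1.1, and the signals are background-subtracted intensity values of each spot, not normalized between arrays. The flags used (control, outlier, saturated, well above background) are other columns of 0 or 1, per the file headers. A table of log2 values deposited by the authors was used as an alternative only; its column medians were 5.53 to 5.54 and each column correlated at 0.988 to 0.995 with the scanner log2 signal of its array, so its scale was taken as log2, with its centring unstated.

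Control and outlier spots were left out and spots of a probe averaged. Of 24684 probes, 24614 had a usable spot on all arrays and 17930 were tested, being well above background throughout 1 group or both. The log2 signal minus the array's 75th percentile was compared with limma 3.58.1 (lmFit, eBayes) in R 4.3.3, adjusting p by Benjamini-Hochberg over these probes. The script was tested on simulated data. Where a dim group had arrays not well above background, signals under the lowest one so called on that array were raised to it. The fold is written as "at least" where a signal was raised or no array of the dim group was well above background. Fcnb was not well above background on C6, but its signal there was not raised, so its fold is written without "at least". Scan came from the file headers. As an alternative, normexp (offset 50) was run on the median spot signal in place of the mean spot signal that had been planned, which was not among the columns at hand. Probes were named through RefSeq accessions in the GRCr8 gene table (14265 probes); the array headers name build rn4, so no coordinates of probes were used. Promoter windows are RefSeq's (GRCr8). Python 3.11.15, numpy 2.4.6, pandas 2.3.3, scipy 1.17.1 and matplotlib 3.10.9 made the tables and figures.

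The members and lists were chosen with earlier results of these data known. Genes were named by rule: every member with a probe; of each other list up to 3 passing genes in each direction by absolute log2 fold change; for Ccl2, Ccr1 and Ccr2 the 5 genes of highest correlation; and defining markers. Tnf, Gnai2, Gnai3, Gnb1, Lyz2, the monocyte markers that did not pass, the atypical receptors and the neighbouring genes were added after their values were seen. A few genes that it selects are not reported here. Nothing says more of the arrays than 1 animal each, so p-values measure the spread between these arrays, whose number limits the precision.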

Additional observations from a re-analysis of the deposited data

How the results depend on the processing

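No paired analysis was possible because the groups share no replicate numbers. Of the 9 CC chemokine genes, 6 were called higher; leaving out 1 array gave 4 to 7, the fewest without M25, and leaving out M25 with scan as a block gave 3. None was called lower in any of the 17 settings, nor was any lower at an unadjusted limma p below 0.05 (0 genes). The Ccl4 difference became -0.017 with normexp, and that of Ccr2 -0.61 with normexp and from -0.0167 (without C5) to 0.5087 (without C6); the cause was not tested. For other chemokine genes, the 3 higher calls became 0 with normexp, 1 with no filter on dim probes, 8 with array weights and 0 without M25 and scan as a block, and 0 to 4 when 1 array was left out. The 1 lower call became 2 with normexp, with array weights and in the authors' deposited table, 0 with no filter and 0 without M25 and scan as a block, and 0 to 2 when 1 array was left out. The array weights fit stopped before it converged. Ccl6 passed with median scaling, quantile normalization, the authors' deposited table and array weights, and Ccl5 with array weights and with probes well above background on all 6 arrays. Median scaling moved the median of all probes to 0.16, normexp to -0.35 and no filter to -0.26, from -0.03. Normexp lowered the differences of Ccl3 to 2.65, Il6 to 4.89, Fcnb to 2.74, S100a8 to 4.06, Il1rn to 2.95, Rgs1 to 2.04 and Fos to 1.73, all still called, and it took the calls of Ccl17, Ccr6, Socs3, Fgr, Clec4e and Csf3r, as given with each. Signal over background on C5 and C6 limits Ccl4, Ccl20 and Ccr2.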
